A study of Homo sapiens with 6 samples.

Results

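The miR-183 cluster is a group of 3 miRNA hairpins, MIR183, MIR96 and MIR182, that are made from a shared primary transcript. Its 4 mature products analysed here, hsa-miR-182-5p, hsa-miR-183-5p, hsa-miR-183-3p and hsa-miR-96-5p (written without the species prefix from here on), were picked by name from the 2588 mature miRNAs in the deposited tables, by a rule that holds names and no measured value, though earlier results of these data were known when the cluster was chosen. All 4 were counted in every library, and all 4 passed the filter on low counts that left 620 miRNAs for testing. The cells were A549, a human lung adenocarcinoma line, with an inducible METTL1 knock-down, taken 5 days after doxycycline at 200 ng/ml had switched on the short hairpin RNA. METTL1 is a methyltransferase that places N7-methylguanosine (m7G) inside tRNAs and some other RNAs. One group of 3 libraries was made from total RNA, and the other group of 3 from RNA pulled down with an anti-m7G antibody (m7G-RIP), so both groups share the knock-down and the doxycycline. Neither cells without the METTL1 knock-down nor pull-downs with a control antibody were analysed here. The comparison thus describes which cluster members were recovered in the m7G-RIP libraries and not what METTL1 did to them. Anything else that differed between the groups of libraries, such as their depth, cannot be told apart from the pull-down. The labels do not say whether the replicates were separate cultures, and p-values then measure the spread between these libraries.

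A miRNA hairpin is cut from its primary transcript by DROSHA and opened by DICER into a short duplex with a 5p and a 3p arm, and usually one arm is kept as the guide. The guide finds mRNAs mainly through its seed, bases 2 to 8 from the 5′ end. This cluster is best known from sensory cells of the eye and ear, and it is abundant in many carcinomas, where its 5p arms are counted among the oncogenic miRNAs. FOXO1, a transcription factor that restrains proliferation, is a known target of miR-96-5p and miR-182-5p, and the cytoskeletal linker ezrin is a known target of miR-183-5p.

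The mature sequences are shown because the 3 guide arms resemble each other at the seed, while behind it miR-96-5p differs from the other two. They are written 5′ to 3′ with the seed in capitals (RefSeq, GRCh38.p14, minus strand of chromosome 7).
miR-182-5p: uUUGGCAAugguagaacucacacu
miR-183-5p: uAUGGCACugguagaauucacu
miR-96-5p: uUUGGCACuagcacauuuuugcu
miR-183-3p: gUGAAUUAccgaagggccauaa
Bases 3 to 7, UGGCA, were the same in the 3 guide arms. Among the 557 tested miRNAs with a RefSeq sequence, 4 had these letters at that place, read on the miRNA itself, which is 0.718% of them. The fourth was miR-1271-5p, which lies on chromosome 5 and has the same seed as miR-96-5p. No other miRNA of the RefSeq table had the seed of miR-182-5p, miR-183-5p or miR-183-3p.
miR-1271-5p: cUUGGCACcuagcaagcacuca
Behind the seed, miR-182-5p and miR-183-5p stayed alike. They were identical at 18 of 22 positions counted from the 5′ end, 12 of them among the 14 positions from base 9 on, and their longest common stretch was UGGUAGAA at bases 9 to 16. miR-96-5p matched miR-182-5p at 7 of the first 8 bases but at only 5 of the 15 positions after them. The closest RefSeq mature miRNA to either miR-182-5p or miR-183-5p was the other of the pair, at 5 edits, and the aligner allowed 1 mismatch.

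The hairpins lie on the minus strand of chromosome 7 (GRCh38, GENCODE 44), in the order MIR183, MIR96 and MIR182 along the transcript. MIR183 spans 129774905 to 129775014, MIR96 spans 129774692 to 129774769, and MIR182 spans 129770383 to 129770492. MIR183 and MIR96 are 135 bases apart and MIR96 and MIR182 are 4199 bases apart, within a stretch of 4632 bases. All 3 hairpins lie in an intron of the lncRNA gene ENSG00000286380 on the same strand, in 1 of its 5 annotated transcripts, and touch no exon of it. The nearest protein-coding genes on either side are NRF1 and UBE2H. Hairpins of MIR182 and MIR96 are shown with both mature arms in capitals, to show where the arms described below lie in them (RefSeq, GRCh38.p14, chr7:129770383-129770492 and chr7:129774692-129774769, minus strand).
MIR182: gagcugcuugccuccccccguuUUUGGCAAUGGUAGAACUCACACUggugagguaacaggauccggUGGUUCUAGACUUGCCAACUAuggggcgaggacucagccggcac
MIR96: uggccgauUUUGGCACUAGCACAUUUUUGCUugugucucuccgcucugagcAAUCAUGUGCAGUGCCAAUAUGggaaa

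Total RNA libraries held from 9155690 to 10753443 counts and m7G-RIP libraries from 2649238 to 3106556. Every pair of replicates varied beyond counting noise (chi-square over its degrees of freedom, 22.2 to 112). Growth text on the labels of the m7G-RIP samples names another line, the colon line Caco-2, while their titles and cell line labels say A549. A list of 4 intestinal miRNAs, led by miR-192-5p, summed to between 21700 and 22300 CPM in total RNA and to between 3110 and 3405 CPM in m7G-RIP. In it, miR-192-5p, miR-194-5p and miR-215-5p were lower in every m7G-RIP library. miR-375 was higher, with log2 CPM of 6.73 to 6.79 in total RNA and 7.32 to 7.81 in m7G-RIP. The pull-down also sets the levels in m7G-RIP, so such sums cannot tell the lines apart. A list of 6 epithelial miRNAs, of which 5 were in the tables, summed to between 528.2 and 560 CPM in total RNA and to between 216.8 and 280.3 CPM in m7G-RIP. The hepatocyte miRNA miR-122-5p was at 0 in every library, and 4 of 6 blood miRNAs were at 0 throughout. Lists of muscle, neural and endothelial miRNAs summed to at most 11.8, 621 and 454 CPM in total RNA and to at most 119, 130 and 304 CPM in m7G-RIP. The muscle sum varied widely among m7G-RIP libraries, from 0.535 to 119 CPM. What part these lists have in the results below was not tested. Levels are CPM, counts scaled to a common library total, after TMM scaling, a correction for differences in library composition.

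Together the 6 mature arms of the 3 hairpins took 0.526% ± 0.0308 of the counts in total RNA and 1.59% ± 0.0817 in m7G-RIP (SD, n = 3). The lowest m7G-RIP library, at 1.49%, lay above the highest total RNA library, at 0.559% (exact two-sided permutation p = 0.1, the smallest that 3 against 3 libraries can give). Nearly all of these counts were of the guide arms of MIR182 and MIR183. These shares are not TMM-scaled, and they also depend on how much of each library other miRNAs took. With library size as the only scaling, the median log2 ratio of m7G-RIP over total RNA was 0.48 for all tested miRNAs. With TMM it was -0.074. How many other miRNAs did not overlap on this unscaled measure was not computed. Total RNA here is bulk RNA, in which levels from fewer cells and from less RNA per cell cannot be told apart. The m7G-RIP libraries hold a part pulled down from such RNA.

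The members were not all called alike. miR-182-5p and miR-183-5p each roughly doubled on the scaled level, the scarce passenger arm miR-183-3p also rose, and miR-96-5p had a lower mean in m7G-RIP without passing the test. Of the 4 members, 3 were enriched at an adjusted p under 0.05 (edgeR quasi-likelihood test, all tested miRNAs), where 23.5% of all tested miRNAs were enriched. None was depleted by edgeR (0 of 4, and 0 at an unadjusted p under 0.05), where 29.2% of all tested miRNAs were. DESeq2 and limma-voom also called 0 of the 4 depleted, where they called 31.1% and 35.3% of all.

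miR-182-5p, the most abundant member, measured 4535, 4062 and 4020 CPM in total RNA replicates 1, 2 and 3, and 7784, 9600 and 9042 CPM in m7G-RIP. All m7G-RIP values were above all total RNA values, as was so for 29.5% of all tested miRNAs. The group means were 4205 ± 286 and 8809 ± 930 CPM (SD, n = 3). On the log2 scale this was a rise of 1.07 with an SE of 0.11 (adjusted p 4.85e-05, edgeR). It ranked 29 among tested miRNAs by level in total RNA and 14 in m7G-RIP.

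miR-183-5p, the guide arm of the first hairpin, measured 2198, 1991 and 2170 CPM in total RNA and 3841, 4653 and 4341 CPM in m7G-RIP. Here too the groups did not overlap, and the lowest m7G-RIP library was again replicate 1. The means were 2120 ± 113 and 4279 ± 409 CPM (SD, n = 3), and the log2 ratio was 1.01 with an SE of 0.11 (adjusted p 4.93e-05, edgeR).

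miR-183-3p, the passenger arm of the same hairpin, rested on few reads, with 68, 48 and 46 counts in total RNA and 48, 81 and 87 in m7G-RIP. Scaled to CPM, these were 7.67, 5.71 and 6.05 in total RNA and 14.1, 25.4 and 23.3 in m7G-RIP, so all m7G-RIP libraries were higher on this scale, although the 48 reads of m7G-RIP replicate 1 lay within the range of total RNA. The means were 6.48 ± 1.05 and 21.0 ± 5.996 CPM (SD, n = 3), and the log2 ratio was 1.69 with an SE of 0.42 (adjusted p 0.00802, edgeR). The 95% interval ran from 0.74 to 2.64. The call was lost when miRNAs with low counts were kept in the fit, where 8.44% of all miRNAs were enriched and miR-183-3p had a log2 ratio of 1.39 (adjusted p 0.0538, edgeR).

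miR-96-5p, whose hairpin sits between the others, measured 47.7, 30.5 and 36.4 CPM in total RNA and 25.3, 21.7 and 27.8 CPM in m7G-RIP. Every m7G-RIP library was below every total RNA library on this scale, as for 36.5% of all tested miRNAs, but with library size as the only scaling the groups overlapped. The means were 38.2 ± 8.74 and 24.9 ± 3.11 CPM (SD, n = 3). Its log2 ratio of -0.62 had an SE of 0.28 and a 95% interval from -1.25 to 0.023 (adjusted p 0.094, edgeR). The result lay close to the threshold. It passed as depleted with at least 10 counts required per library (log2 ratio -0.67, adjusted p 0.0479), where 37% of all tested miRNAs were depleted. It also passed with no filter on low counts (-0.89, adjusted p 0.0491), where 14.9% were, and without m7G-RIP replicate 3 (-0.91, adjusted p 0.0431, all by edgeR), where 31.1% were. In these settings the log2 ratios of the other members were lower as well. That of miR-182-5p was 1.01, 0.78 and 0.83, in the same order, against 1.07. The settings share libraries, so their calls are not independent of each other.

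**Figure D1:**
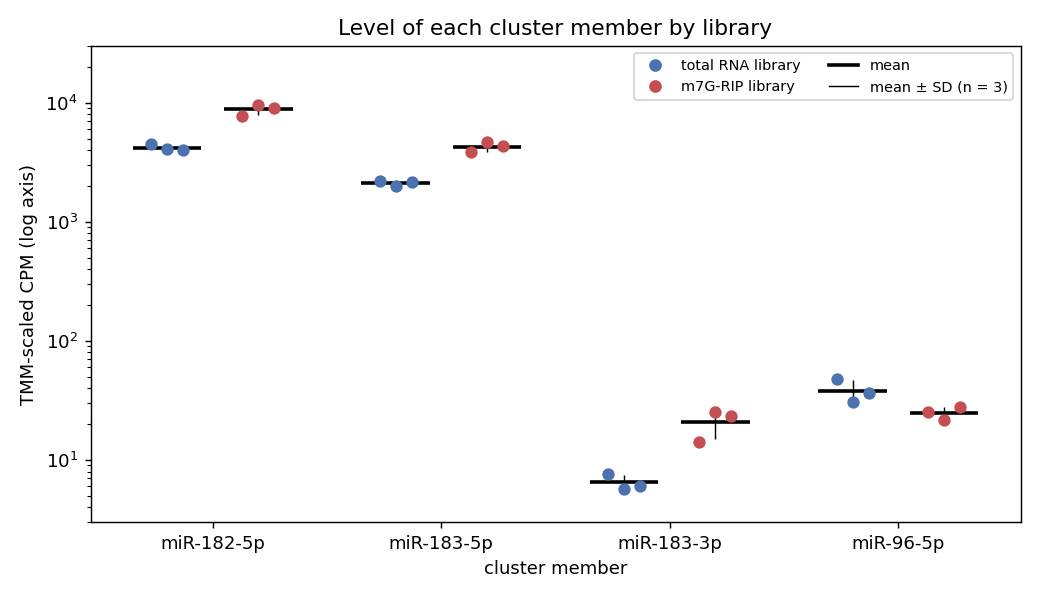
TMM-scaled CPM of each cluster member on a log axis, with 1 point per library, the mean as a thick bar and 1 SD to either side as a thin line (n = 3). miR-182-5p and miR-183-5p rise together from total RNA to m7G-RIP, miR-183-3p rises from 6.48 to 21.0 CPM, and miR-96-5p lies lower in m7G-RIP.

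The size of each log2 ratio depended on the scaling. With library size alone, a setting that raised the median of all tested miRNAs by 0.55, the log2 ratio was 1.62 for miR-182-5p, 1.56 for miR-183-5p, 2.23 for miR-183-3p and -0.057 for miR-96-5p. Unscaled, miR-96-5p took 31.5 ± 7.23 CPM in total RNA and 30.3 ± 4.65 in m7G-RIP (SD, n = 3), and the libraries overlapped (exact permutation p = 0.9). Whether miR-96-5p differed between the groups at all thus depended on the scaling. The other 3 members were enriched with library size alone too, where 34.8% of all tested miRNAs were.

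Ratios between members inside a library do not depend on scaling, and they were used to ask whether the members were recovered alike. All 6 pairs were compared, and p-values were adjusted over them. There were 2.06, 2.04 and 1.85 reads of miR-182-5p for each read of miR-183-5p in total RNA, and 2.03, 2.06 and 2.08 in m7G-RIP. The groups overlapped. On the log2 scale the ratio moved by 0.053 (exact permutation p = 0.4, adjusted 0.4), which was less than its SD of 0.085 among total RNA libraries.

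The ratios to miR-96-5p did not overlap between the groups. How often the ratio of any other pair of tested miRNAs does so was not computed. Of all tested miRNAs, 23.5% were enriched and 29.2% depleted (edgeR). miR-182-5p had 95, 133 and 110 reads for each read of miR-96-5p in total RNA, and 307, 443 and 325 in m7G-RIP. The mean ratio was 3.15-fold higher in m7G-RIP, or higher by 1.66 on the log2 scale (exact permutation p = 0.1, adjusted 0.12). miR-183-5p had 46.1, 65.2 and 59.6 reads for each read of miR-96-5p in total RNA against 152, 215 and 156 in m7G-RIP, a 3.04-fold difference. With 3 libraries against 3 no such ratio can pass 0.05. The direction held in each of the 6 comparisons that left out a library, where the log2 change ran from 1.49 to 1.78 for miR-182-5p and from 1.44 to 1.71 for miR-183-5p.

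The arms of MIR183 were compared in the same way. The 3p arm made up 0.348% of this hairpin's reads in total RNA replicate 1 (95% Wilson interval 0.275% to 0.441%), 0.286% in replicate 2 (0.216% to 0.379%) and 0.278% in replicate 3 (0.208% to 0.370%). In m7G-RIP it made up 0.367% in replicate 1 (0.277% to 0.486%), 0.544% in replicate 2 (0.438% to 0.675%) and 0.534% in replicate 3 (0.433% to 0.658%). Reads are not independent molecules, so these intervals cover counting error only. The groups did not overlap, but m7G-RIP replicate 1 lay within the interval of total RNA replicate 1. The log2 ratio of 3p to 5p was higher by 0.65 in m7G-RIP, which did not pass the test (exact permutation p = 0.1, adjusted 0.12).

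**Figure D2:**
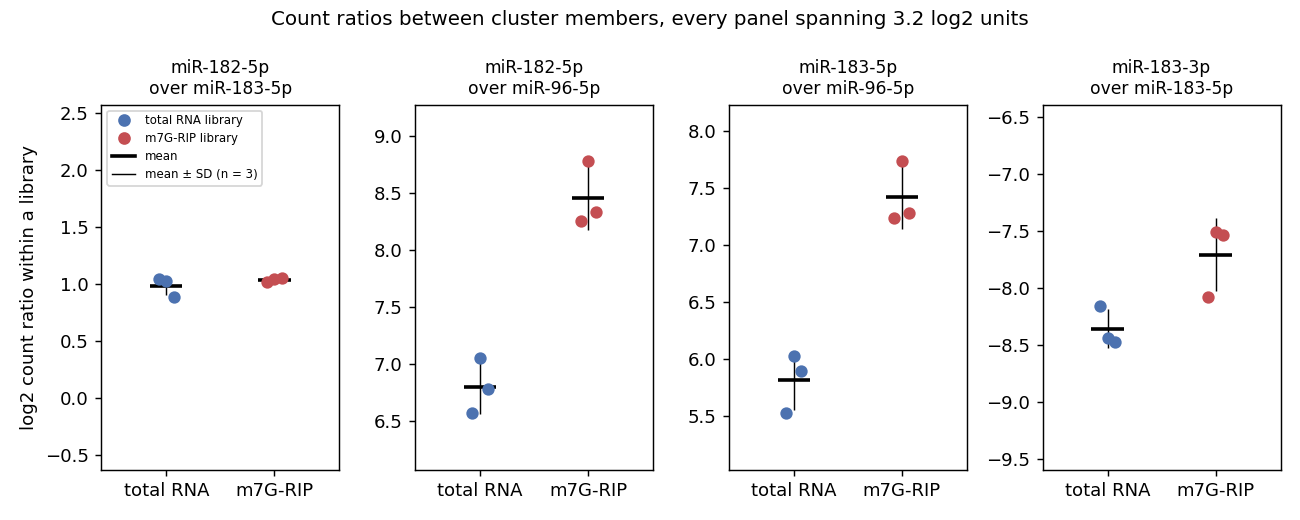
Log2 count ratio of 2 members inside each library, for 4 of the 6 pairs, with 1 point per library, the mean as a thick bar and 1 SD to either side as a thin line (n = 3). Panels have different origins but the same span. The ratio of miR-182-5p to miR-183-5p stays near 1 in both groups, while either over miR-96-5p is higher in all m7G-RIP libraries.

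Within the cluster, miR-182-5p took 66.0% ± 1.31 of the counts in total RNA and 67.0% ± 0.286 in m7G-RIP (SD, n = 3), and the libraries overlapped (exact permutation p = 0.2, adjusted over 4 members 0.267). The difference of 1.04 percentage points was 0.28 without total RNA replicate 3. miR-183-5p took 33.3% ± 1.32 and 32.6% ± 0.317 (SD, n = 3; exact permutation p = 0.6, adjusted 0.6). The share of miR-96-5p went from 0.596% ± 0.101 to 0.192% ± 0.0355, and that of miR-183-3p from 0.101% ± 0.0103 to 0.157% ± 0.0314 (SD, n = 3; each with an exact permutation p = 0.1, adjusted 0.2).

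The remaining arms of the cluster were close to the limit of detection. miR-182-3p had 1, 3 and 11 counts in total RNA and 0, 57 and 2 in m7G-RIP. Its reads in m7G-RIP came almost wholly from replicate 2, where it measured 17.9 CPM, and it did not pass the filter. miR-96-3p had 2, 6 and 3 counts in total RNA and 0 in each m7G-RIP library. A count of 0 allows up to 3 counts, or from 0.803 to 0.942 CPM in these libraries, which is above the 0.444 ± 0.248 CPM of total RNA (SD, n = 3), so no difference was detectable at this depth.

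miR-1271-5p shares its seed with miR-96-5p but matches it at only 2 of the 14 positions after base 8. It measured 73.9, 64.1 and 80.7 CPM in total RNA and 8.25, 21.98 and 15.3 CPM in m7G-RIP. Every m7G-RIP library was below every total RNA library, as for 36.5% of all tested miRNAs. Its log2 ratio was -2.27 with an SE of 0.35 (adjusted p 0.000643, edgeR). The 2 tested miRNAs with this seed both had negative log2 ratios, where the median of all tested miRNAs was -0.074. Only miR-1271-5p passed the threshold, where 29.2% of all tested miRNAs were depleted (edgeR). With library size alone, miR-96-5p was at -0.057.

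**Figure D3:**
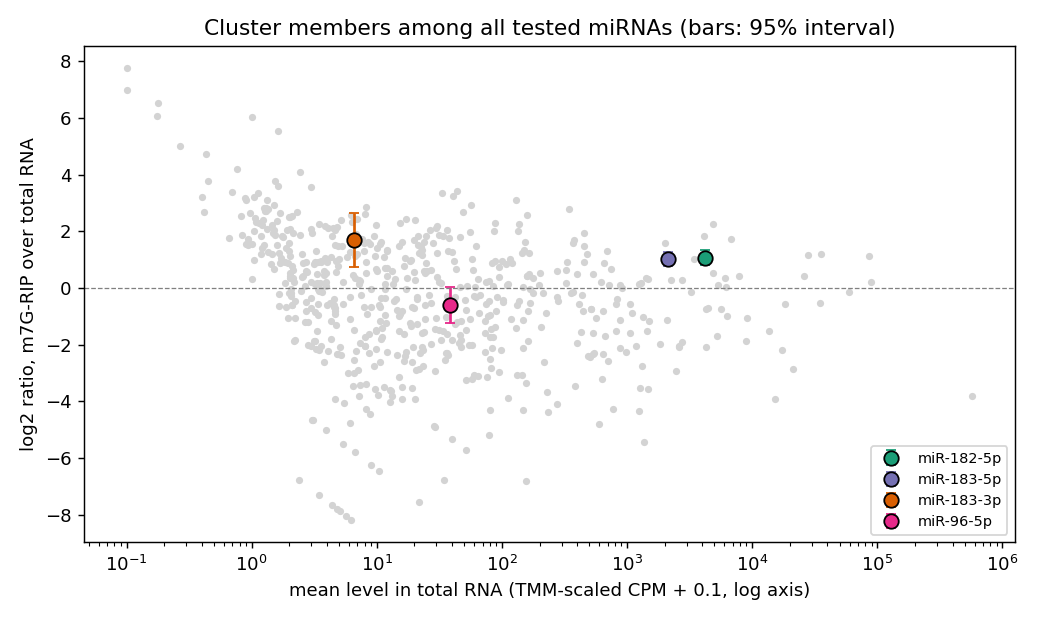
Log2 ratio of m7G-RIP over total RNA against the mean level in total RNA (TMM-scaled CPM plus 0.1, log axis) for the 620 tested miRNAs in grey, with the cluster members in colour and bars for their 95% interval. miR-182-5p and miR-183-5p lie beside each other at 1.07 and 1.01, and the interval of miR-96-5p reaches just past 0.

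Because m7G is a mark on guanosine, the members were set among miRNAs with as many guanosines. miR-96-5p has 4 guanosines, miR-182-5p and miR-183-5p have 5, and miR-183-3p has 6 with the longest run, GGG. This is the order of their log2 ratios, over 4 miRNAs that share libraries and a transcript. For 557 miRNAs, 89.8% of those tested, a mature sequence was at hand, and their percentage of G went with a higher log2 ratio (Pearson r = 0.410, Spearman rho = 0.436), given as a description because miRNAs are not replicates.

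Set against miRNAs with equally many guanosines, the 3 enriched members lay in the upper part. This largely follows from their being called enriched, since few miRNAs with as many guanosines were, and it is given as a description. Tested miRNAs with 5 guanosines, 82 in number, had a median log2 ratio of -0.72 and an upper quartile of 0.24, and 14.6% of them were enriched. Of these, 10 were above miR-182-5p and 11 were above miR-183-5p. Among the 64 tested miRNAs with 6 guanosines the upper quartile was 0.41, and 2 were above miR-183-3p. miR-96-5p, at -0.62, lay between the median of -1.09 and the upper quartile of -0.13 of the 64 tested miRNAs with 4 guanosines. Its place depended on the scarce miRNAs in this set. Once those averaging under 100 counts were dropped, 35 remained, and their upper quartile was -0.67. miR-96-5p then lay just above that quartile, and 8 miRNAs were higher. After the same cut, miR-182-5p and miR-183-5p stayed above the upper quartile for 5 guanosines, 0.22. The loose G-quadruplex pattern is 4 runs of at least 2 G that are 1 to 7 bases apart. None of the 4 mature members holds it, while 5.92% of the tested miRNAs with a sequence do. The paper counted such motifs in primary hairpins instead. Between its arms, the MIR182 hairpin shown above does hold the pattern, and hairpins were otherwise not searched.

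**Figure D4:**
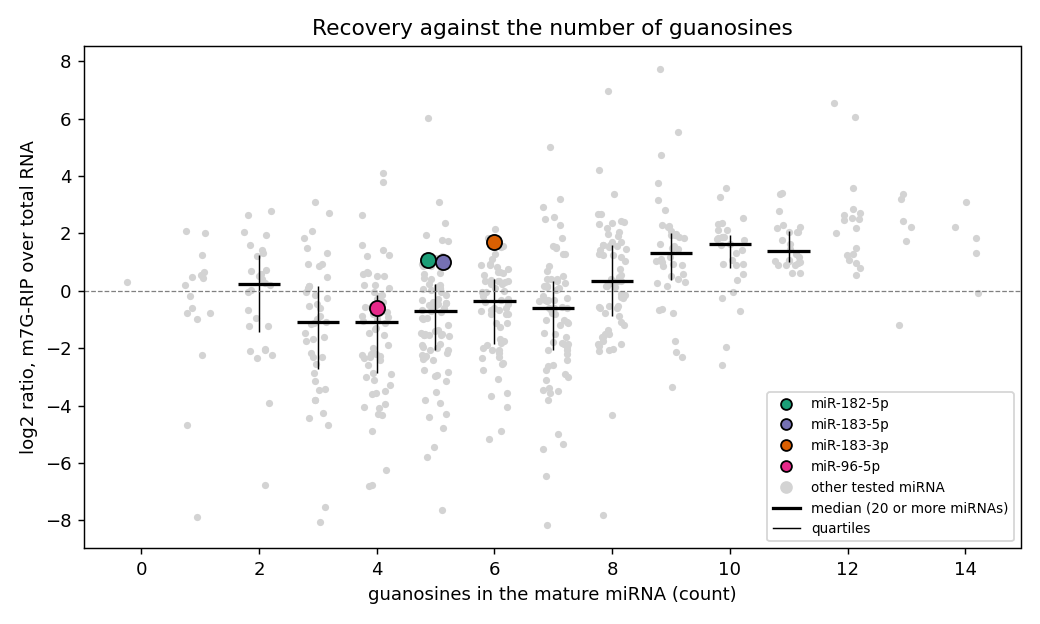
Log2 ratio of m7G-RIP over total RNA against the number of guanosines in the mature miRNA, for 557 tested miRNAs in grey (spread sideways for visibility) and the 4 members in colour, with medians and quartiles for numbers held by at least 20 miRNAs. miR-182-5p, miR-183-5p and miR-183-3p sit above the upper quartile of their columns, and miR-96-5p sits inside the quartiles of its column. The columns include scarce miRNAs. Without those averaging under 100 counts, miR-96-5p would lie just above its upper quartile.

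The letters GGUAG lie in the stretch common to miR-182-5p and miR-183-5p and are absent from miR-96-5p, miR-1271-5p and miR-183-3p. This motif was picked after the values were seen and is given as a description. It was found, on the miRNA itself, in 29 tested miRNAs (5.21% of those with a sequence, and 2.91% of the 2370 RefSeq mature miRNAs), among them most of the let-7 family and miR-196a-5p and miR-196b-5p. Of the 29, 14 were enriched and 7 were depleted, with a median log2 ratio of 0.49, against -0.028 for all tested miRNAs with a sequence. The letters alone therefore did not go with one direction, since miR-17-5p and miR-20a-5p also hold them and had log2 ratios of -2.58 and -2.92 (adjusted p 2.56e-05 and 2.92e-07, edgeR).

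The profile of each member over the 6 libraries was compared with that of 306 tested miRNAs whose mean was 100 counts or more. The measure was the root-mean-square distance between log2 CPM values centred on their own mean. This distance includes the difference between the groups, so the nearest miRNAs have like log2 ratios by construction. The nearest to miR-182-5p was miR-183-5p, at a distance of 0.057, and the nearest to miR-183-5p was miR-182-5p. Next to miR-182-5p came miR-196b-5p, a miRNA of the HOX clusters, at 0.068 with a log2 ratio of 1.03, and next to miR-183-5p came miR-193a-5p at 0.075 with 0.88. miR-183-3p was nearest to miR-196a-5p at 0.146 and then to miR-2110 at 0.184. The nearest to miR-96-5p was miR-181a-2-3p at 0.161, with a log2 ratio of -0.55, followed by miR-148b-3p at 0.175.

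The cluster was set beside 3 other groups of miRNAs encoded together, which serve to show its place and were not tested against it. In MIR17HG, the oncogenic miR-17 to miR-92a transcript, 9 of 12 arms were tested, 2 were enriched and 6 depleted, with a median log2 ratio of -2.92. Its range was wide, from -6.82 for miR-19b-3p to 1.64 for miR-92a-1-5p. In MIR106B-25, its paralog inside MCM7, 1 of 6 was enriched and 3 were depleted, with a median of -1.06, from -5.17 for miR-106b-5p to 1.48 for miR-25-5p. In the miR-200 family, which comes from more than one transcript and maintains the epithelial state, 6 of 9 were tested, none (0) was enriched and 3 were depleted by edgeR, with a median of -1.33, from -2.92 for miR-200a-3p to 1.11 for miR-200b-5p. The median of the 4 members of the miR-183 cluster was 1.04, and that of all tested miRNAs was -0.074.

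**Figure D5:**
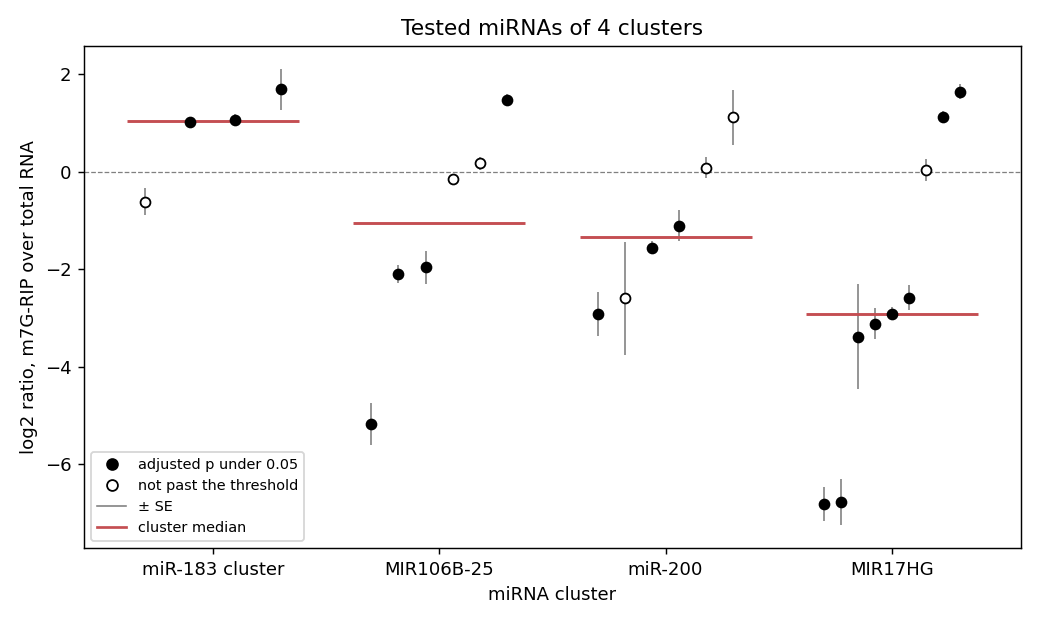
Log2 ratio of m7G-RIP over total RNA of the tested miRNAs in 4 groups encoded together, with SE bars, filled points for an adjusted p under 0.05 (edgeR), open points for the others and a red line at each median. Log2 ratios spread widely inside each group, and the miR-183 cluster has the highest median, 1.04.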

How the data were processed

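The files deposited by the authors hold raw, unscaled counts for each mature miRNA, 1 table for total RNA and 1 for m7G-RIP, each with 3 libraries. Per the authors' methods, single-end reads of 50 bases from a stranded small RNA kit went through Trimmomatic, and STAR then placed them along their whole length on GRCh38 (at most 1 mismatch and 10 locations). featureCounts tallied them over the mature miRNAs of miRBase. The submitters' processing notes name Bowtie2 as the aligner. How reads with several locations were counted is not given in the sources used here.

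Groups and replicate numbers came from the sample titles. The test was that of edgeR 4.0.16, run in R 4.3.3 (TMM scaling, default expression filter by group, robust quasi-likelihood F test, Benjamini-Hochberg adjustment over 620 miRNAs, threshold 0.05). The SE of a log2 ratio was taken from its F statistic. Count ratios used a pseudocount of 0.5 and exact two-sided permutation tests. Sequences of 557 tested miRNAs came from RefSeq and loci from GENCODE 44. The code was tested on simulated counts. Total counts ranged from 2649238 to 10753443 per library, and a count of 0 allows up to 3 counts.

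Named miRNAs were the 4 members, the other arms of their hairpins, tested miRNAs with a member's seed, the 2 nearest profiles of each member, and the extremes of each comparison cluster. The members and lists were chosen with earlier results of these data known. miR-17-5p, miR-20a-5p and the GGUAG motif were chosen after values were seen. Alternatives covered scaling, filtering, tool (DESeq2 1.42.0, limma-voom 3.58.1), threshold, replicate block and leaving out each library.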

Additional observations from a re-analysis of the deposited data

How the results depend on the processing

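Direction and side of the threshold, or the size of a count or untested value, held in 72 recomputed values under other settings. With a library left out they held in 93. Under other settings 14 moved, 2 passed the threshold anew and 1 no longer passed it. With a library left out 1 moved, 1 passed it anew and 1 changed direction. Many of these values could change only in direction, because the exact tests of count ratios and shares cannot pass 0.05 with so few libraries. For these ratios and shares the replicate block gives the main value again. The step from 3 to 2 members enriched was tallied as held. The share of the cluster taken by miR-183-5p, lower by 0.713 percentage points in m7G-RIP, was higher by 0.045 points without total RNA replicate 3. With no filter on low counts, miR-183-3p had a log2 ratio of 1.39 and was no longer called, while miR-96-5p at -0.89 was called, which left 2 members enriched and 1 depleted. With at least 10 counts in every library, miR-96-5p had -0.67 and 1 member was depleted. Under both of these filters the other members were lower too, and miR-183-5p had 0.73 and 0.95 against 1.01. The cause was not tested. Over 14 alternatives miR-182-5p ran from 0.78 to 1.62 and miR-183-5p from 0.73 to 1.56, always past the threshold.

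Leaving out each library in turn, the log2 ratio ran from 0.83 to 1.10 for miR-182-5p, from 0.78 to 1.01 for miR-183-5p, from 1.37 to 1.79 for miR-183-3p and from -0.91 to -0.44 for miR-96-5p, and the number of members depleted from 0 to 1. The difference in share ran from 0.28 to 1.44 points for miR-182-5p and from -1.17 to 0.045 for miR-183-5p. The median of MIR17HG was -2.37 with library size alone and -1.34 where each library had to hold at least 10 counts, when 3 of its arms were depleted. That of MIR106B-25 was -0.50 and -0.20, with 3 enriched under library size alone. That of the miR-200 family was -0.77 and -0.57, with 2 enriched under library size alone. The correlation of the log2 ratio with guanosine was 0.396 for the number of G, 0.319 for the longest run of G and 0.278 for the G-score.

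Replicate numbers did not serve as a pairing, because same-numbered libraries deviated from their groups with correlations of only -0.0361 (number 1), -0.101 (number 2) and 0.0538 (number 3), and only number 3 correlated best with its own number. A fit with a replicate block called 122 enriched and 175 depleted miRNAs against 146 and 181 without it, and the log2 ratios were 1.06 for miR-182-5p, 1.01 for miR-183-5p, 1.66 for miR-183-3p and -0.60 for miR-96-5p, with no call changed among the members. Depth limits miR-183-3p, which had 46 to 87 counts in a library, and miR-96-5p, which had 69 to 104 in m7G-RIP.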
